A study of Caenorhabditis elegans with 6 samples.

Results

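The regions described here are the windows of 500 bp on each side of the annotated start of every nuclear snoRNA gene of Caenorhabditis elegans, 346 windows out of 46890 such windows at nuclear genes of any biotype (Ensembl release 115, build WBcel235). A window was called bound when it held the centre of a HIF-1::GFP peak from either of the 2 deposited peak lists, so the members were chosen by annotation and not by signal. That snoRNA genes were taken as the regions was decided with earlier results of these data known. In all, 41 of the 346 windows (11.8%) were bound and 305 were not.

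Small nucleolar RNAs guide the chemical modification of ribosomal RNA and spliceosomal RNA. Box C/D snoRNAs, named after a conserved motif near each end, guide 2′-O-methylation together with fibrillarin, NOP56 and NOP58, and H/ACA snoRNAs guide pseudouridylation together with dyskerin. In animals many snoRNAs are processed from introns of host genes that are often themselves involved in making ribosomes or proteins, but nematodes also have snoRNA genes with promoters of their own, some of them read by RNA polymerase III. That polymerase recognises internal promoter elements, the A box and the B box of tRNA genes, and in a few small RNA genes the same elements lie just upstream of the mature RNA. HIF-1, the hypoxia-inducible factor, binds DNA as a heterodimer at hypoxia response elements (HREs) that share the core ACGTG or GCGTG. EGL-9 hydroxylates HIF-1 when oxygen is present, after which HIF-1 is destroyed.

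Chromatin immunoprecipitation and sequencing (ChIP-seq) with anti-GFP antibodies was performed on whole L4 larvae, synchronised and grown at 20 °C on OP50 bacteria. The control strain OR3349 carried the hif-1(ia4) deletion and the integrated transgene odIs131[hif-1::gfp], and OR3350 carried both of these and egl-9(sa307). Per the study's methods both strains also carried unc-119(ed3), rescued by unc-119(+) on the transgene, and all data came from this 1 integrated fosmid line. For each genotype there were 2 ChIP replicates and 1 pooled input, merged by the authors into 1 list, so that no spread between replicates could be computed here. There were 604 nuclear peaks for egl-9 mutants and 52 for the control strain. Whole animals were used, so no cell type can be assigned to any site, and the lists give no library depth.

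The sequences at 3 peaks of egl-9 mutants are shown first, chosen to show a peak centre with 1 HRE core, with 2 and with none. The peak with the highest signal in any snoRNA window of egl-9 mutants lay at D2021.6, an H/ACA-type gene between protein-coding genes, and the sequence within 100 bp of its centre held 1 HRE core. The window of C10C6.8, in an intron of the P-type ATPase gene catp-8, held 2 cores at its peak centre, and that of ZK994.7, in an intron of the peroxidasin gene pxn-1, held none. Capitals mark the letters ACGTG or GCGTG on either strand (CACGT and CACGC on the strand shown). Each line covers 100 bp on either side of the peak centre, from the RefSeq genome of WBcel235, which also gave the sequences printed further on.
D2021.6 (X:8546100-8546300, plus strand): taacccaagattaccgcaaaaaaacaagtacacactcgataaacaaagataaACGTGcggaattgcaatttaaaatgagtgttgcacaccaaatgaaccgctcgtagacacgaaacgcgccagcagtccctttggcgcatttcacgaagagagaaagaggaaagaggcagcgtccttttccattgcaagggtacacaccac
C10C6.8 (IV:11474156-11474356, plus strand): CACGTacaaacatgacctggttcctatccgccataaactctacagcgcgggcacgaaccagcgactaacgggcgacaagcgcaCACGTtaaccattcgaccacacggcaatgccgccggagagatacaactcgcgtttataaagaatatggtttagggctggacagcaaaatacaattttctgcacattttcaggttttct
ZK994.7 (V:8500474-8500674, plus strand): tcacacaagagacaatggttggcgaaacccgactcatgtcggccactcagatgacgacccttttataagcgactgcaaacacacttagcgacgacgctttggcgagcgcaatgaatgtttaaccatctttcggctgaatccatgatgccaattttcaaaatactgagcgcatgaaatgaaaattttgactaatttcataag

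In egl-9 mutants, where HIF-1 is stable in normal oxygen, 40 of the 346 snoRNA windows (11.6%, Wilson 95% interval 8.61 to 15.4%) held a peak centre, against 1.35% of the windows of all nuclear genes. These 40 windows were reached by 39 peaks, because the neighbours C51F7.3 and C51F7.4 shared 1. Windows at tRNA genes held a centre in 57 of 612 cases (9.31%, 7.26 to 11.9%), and windows at genes of biotype snRNA (small nuclear RNA) in 9 of 129 (6.98%, 3.71 to 12.7%). Both intervals overlapped that of the snoRNA genes. Protein-coding genes lay far lower, at 288 of 19973 (1.44%), and miRNA genes at 8 of 261 (3.07%, 1.56 to 5.93%). Genes of biotype ncRNA stood at 198 of 7764 (2.55%). The share over all nuclear genes is lowered by the many piRNA genes, of which 26 of 15363 (0.169%) were bound. The intervals cover counting error over genes only and no variation between animals. The paper places most HIF-1 sites of egl-9 mutants in or near stretches where many other transcription factors were found. It describes such stretches as possibly sticky and a source of false ChIP-seq signal. Whether the peaks in snoRNA windows are of this kind was not tested, and bound means here only that a peak centre was called.

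In the control strain, with EGL-9 present, 6 of the 346 windows (1.73%, 0.797 to 3.73%) held the centre of 1 of 5 peaks, against 0.109% of all nuclear genes. The share was 10 of 612 at tRNA genes (1.63%), 3 of 129 at snRNA genes (2.33%) and 12 of 19973 at protein-coding genes (0.0601%). Of the control list, 5 of 52 peaks (9.62%, 4.18 to 20.6%) lay in snoRNA windows, and of the list of egl-9 mutants 39 of 604 (6.46%, 4.76 to 8.71%). This difference did not pass an exact test (odds ratio 1.54, 95% interval 0.580 to 4.10, Fisher exact p = 0.382, two-sided, with lists that share sites and so are not independent). When the list of egl-9 mutants was cut to the 86 peaks at or above the weakest control signal, 1 of them lay in a snoRNA window, and the odds ratio became 9.04 (Fisher exact p = 0.0284). Signal was not scaled between the lists, so that threshold does not set them on a common scale. With the 52 strongest peaks of egl-9 mutants instead, as many as in the control list, 1 lay in a snoRNA window. The odds ratio was then 5.43 and did not pass (Fisher exact p = 0.205).

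**Figure D1:**
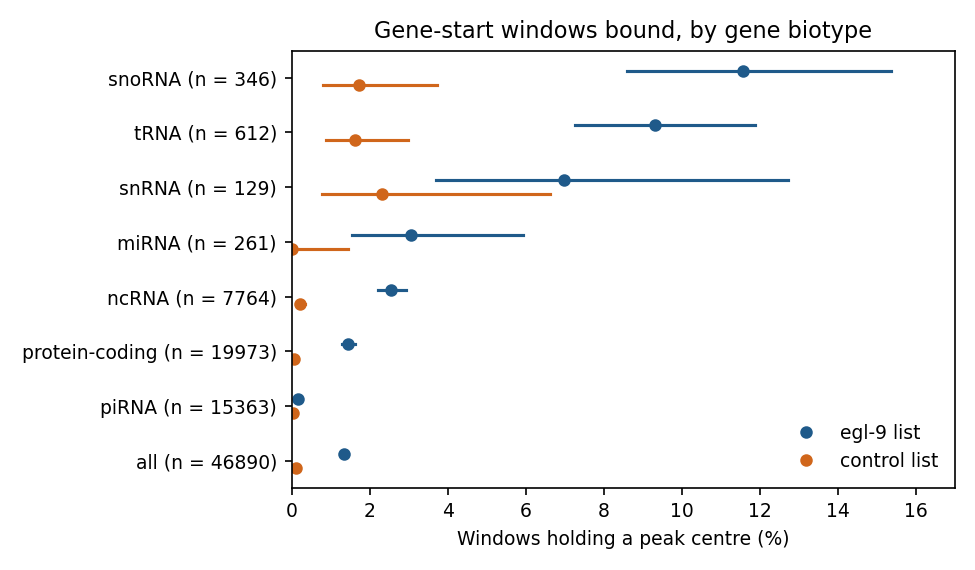
Share of gene-start windows (x axis, percent) that held a peak centre, by gene biotype (y axis, with the number of genes), in the list of egl-9 mutants (blue) and the control list (orange). Points are shares and lines are Wilson 95% intervals; snoRNA windows stood at 11.6% and 1.73%, and protein-coding windows at 1.44% and 0.0601%.

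In both lists 5 genes were bound (C51F7.3, C51F7.4, ZK994.7, ZK265.10 and W03C9.9), 35 were bound only in the list of egl-9 mutants and 1, T03F7.8, only in the control list. The shared genes were 12.5% of those bound in egl-9 mutants and 83.3% of those bound in the control strain, and over all nuclear genes 47 shared windows were 7.44% of 632 and 92.2% of 51. C51F7.4 and C51F7.3 lie in this order, 5′ to 3′, in tandem inside frm-7, a gene for a FERM domain protein, and C51F7.4 overlaps an exon of it. They had the highest snoRNA signal of the control list (244, rank 8 of 52) and ranked 94 of 604 in egl-9 mutants (signal 134). Signal is the value the authors' peak caller gave each peak, and it ranks peaks within 1 list. The control peak was centred 10 bp inside C51F7.4, and that of egl-9 mutants 20 bp upstream of C51F7.3. ZK994.7 followed at rank 9 in the control list (signal 234, centre 8 bp upstream) and rank 98 in egl-9 mutants (129.6, 5 bp upstream). The remaining shared genes were lower in both lists. ZK265.10 had a signal of 160.3 (rank 34) in the control list and 70.2 (rank 352) in egl-9 mutants, and W03C9.9 had 157 (rank 36) and 81.6 (rank 264).

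T03F7.8 lay on the opposite strand within an intron of the cuticlin-like gene cutl-18. Its control peak had a signal of 173 (rank 23) and was centred 39 bp upstream of the snoRNA start, while in egl-9 mutants the nearest centre was 258766 bp away. No read counts were used here, so whether signal was absent at T03F7.8 in egl-9 mutants or fell short of the authors' threshold cannot be told apart.

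Most bound windows of egl-9 mutants held peaks of modest rank. The 39 peaks had signals from 55.3 to 221 with a median of 72.6, against a median of 77.8 over the other 565 peaks. Their median rank was 331 of 604 and their best 25. None of the 10 strongest peaks of the list lay in a snoRNA window, 1 of the 50 strongest did, and 3 of the 100 strongest. Counted in 4 equal parts of the list from the strongest to the weakest, 4, 11, 15 and 9 snoRNA peaks fell in each. In the upper 50% of the list by signal were 15 of 39 snoRNA peaks (38.5%, 24.9 to 54.1%) and 287 of 565 others (50.8%, 46.7 to 54.9%), a difference that did not pass the test (odds ratio 0.605, 0.311 to 1.18, Fisher exact p = 0.185, two-sided). In the control list the 5 snoRNA peaks ranked 8, 9, 23, 34 and 36 of 52, with signals from 157 to 244 (median 173) against a median of 169.8 over the other 47. Here 3 of 5 and 23 of 47 were in the upper 50% (Fisher exact p = 1, odds ratio 1.57, 0.239 to 10.2).

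**Figure D2:**
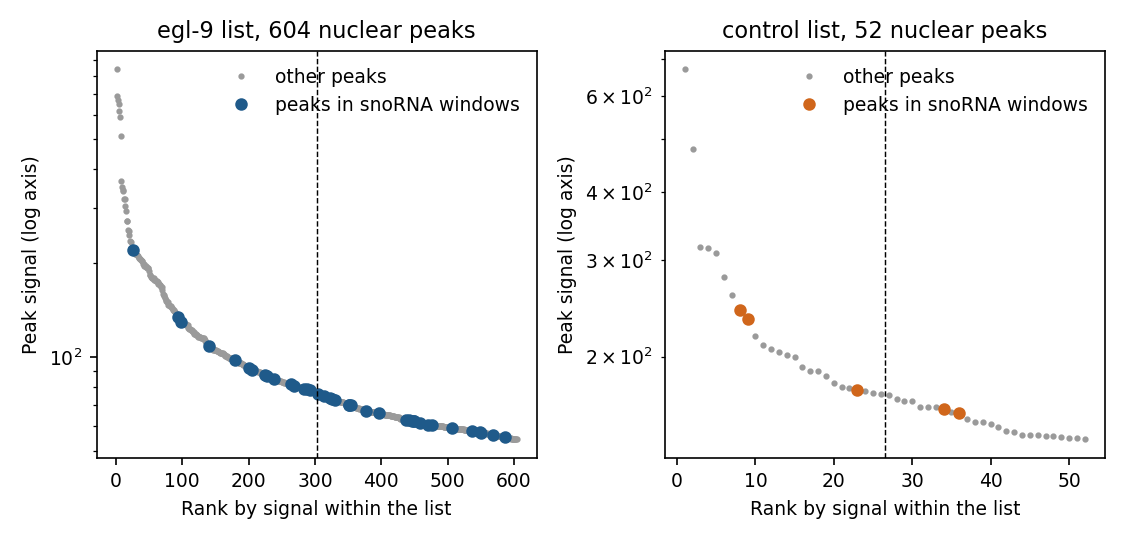
Peak signal (y axis, log scale, units of the peak caller) against rank within the list (x axis) for egl-9 mutants (left) and the control strain (right). Coloured points are peaks centred in a snoRNA window, grey points are all other peaks and the dashed line marks the middle of the list; the best snoRNA peak ranked 25 of 604 on the left and 8 of 52 on the right.

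After D2021.6 (signal 221) and the frm-7 and pxn-1 sites, the next gene by signal in egl-9 mutants was Y53F4B.47, 221 bp from the start of the cap methyltransferase gene cmtr-1 (signal 108, rank 141). C10C6.8 in catp-8 followed (98.0, rank 179), then the intergenic T06C12.16 (92.0). Y24D9A.9, in an intron of the large-subunit ribosomal protein gene rpl-7A, reached 91.0 (rank 205). Its peak centre lay 350 bp upstream of the snoRNA start and 68 bp from the rpl-7A start. M7.15 (87.8), F32E10.10 (86.6), F55A11.10 (84.7), W03C9.9 (81.6), K02F3.15 in an intron of the bZIP factor gene zip-2 (80.8), F59C6.15 (79.1) and M106.6 in an intron of the condensin subunit gene mix-1 (78.8) completed the 15 genes with the highest signal. The step from 221 to 134 separated D2021.6 from all other bound snoRNA genes of this list, and below it the signals ran without a comparable gap.

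The D2021.6 window also held a protein-coding start. The peak centre lay 4 bp inside the snoRNA gene and 179 bp from the start of sdha-1, which encodes the flavoprotein subunit of succinate dehydrogenase. Over all 39 peaks of egl-9 mutants in snoRNA windows, 12 had a protein-coding start within 500 bp of the centre, and 6 were centred nearer to that start than to the snoRNA start. None of the 5 control peaks had a protein-coding start within 500 bp. No snoRNA peak of either list lay within 500 bp of a tRNA or snRNA gene start.

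Peak centres fell close to the snoRNA start and mostly just upstream of it. In egl-9 mutants 33 of 39 centres were upstream of the nearest snoRNA start, with a median of -42 bp (quartiles -64 and -24.5 bp). Between 0 and 75 bp upstream lay 25 centres, within 150 bp on either side 34, and farther than 200 bp only 5. In the control strain 4 of 5 centres were upstream, with a median of -39 bp, and all 5 were within 150 bp. Every one of the 39 peaks was 444 bp wide and the 5 control peaks were 440 bp wide, so the width carries no information on the extent of binding.

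**Figure D3:**
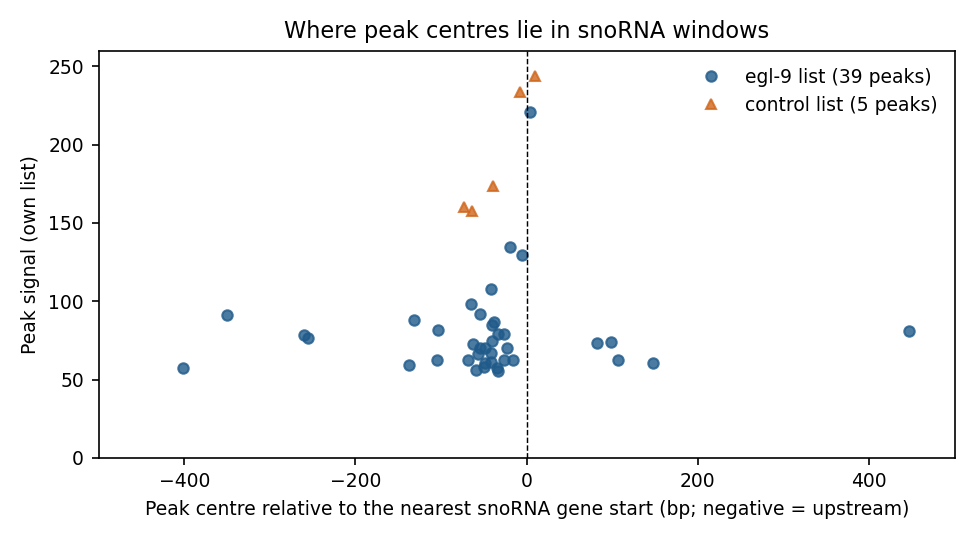
Position of each peak centre relative to the nearest snoRNA gene start (x axis, bp, negative values upstream) and its signal within its own list (y axis) for egl-9 mutants (circles, 39 peaks) and the control strain (triangles, 5 peaks). Of the circles, 25 stand between 0 and 75 bp upstream of the start and 5 lie more than 200 bp from it.

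Few genes lay near the limit of 500 bp. Just inside it in egl-9 mutants were K02F3.15 (centre 446 bp downstream, signal 80.8), K07C5.11 (upstream, 57.1) and Y24D9A.9. Just outside were C06A1.9 (512 bp upstream, 193), W01H2.11 (514 bp upstream, 57.4) and K11H12.13 (583 bp upstream, 198), and 12 genes in all had their nearest centre between 500 and 1000 bp. In the control list the bound gene farthest from its peak was C51F7.3 (99 bp), and the nearest unbound gene was K11H12.13 (567 bp upstream, signal 172).

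Close to the snoRNA start, HRE cores were more frequent at bound than at unbound loci. Because neighbouring windows share sequence, snoRNA genes whose starts lay within 1000 bp of each other were merged into 321 loci, 40 bound and 281 unbound. Within 100 bp of the snoRNA start an HRE core was present at 26 of 40 bound loci (65.0%, 49.5 to 77.9%) and at 105 of 281 unbound loci (37.4%, 31.9 to 43.2%). The odds ratio was 3.11 (1.56 to 6.23, Fisher exact p = 0.00167, two-sided, 0.0100 after Benjamini-Hochberg adjustment over 6 comparisons). Earlier results of these data were known when the motifs were chosen, which the p-values do not take into account. The call did not hold in wider stretches, with a core at 30 of 40 and 155 of 281 loci within 200 bp of the start (odds ratio 2.44, Fisher exact, adjusted p = 0.0504) and at 37 of 40 and 222 of 281 loci over the whole window of 500 bp on each side (3.28, adjusted p = 0.105). The mean number of cores was 0.85 at bound and 0.509 at unbound loci. For reference, 30.1% of windows at protein-coding starts and 25.9% at all nuclear genes held a core in the same length, against 40.2% at snoRNA genes and 53.5% at snRNA genes.

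The 2 forms of the core are given separately. Counted by gene, GCGTG was present at 19 of 41 bound windows (46.3%) and 73 of 305 unbound (23.9%), and ACGTG at 9 (22.0%) and 48 (15.7%). Over all nuclear genes these shares were 11.6% and 16.5%. With ACGTG alone the comparison of loci did not pass (odds ratio 1.35, adjusted p = 0.592, Fisher exact test). GC content moved with the difference, with a median of 49% at bound loci (27.9 to 65.2%) and 41.8% at unbound loci (21.9 to 57.2%). Among loci at or above the lower GC quartile of bound loci, 23 of 30 bound and 54 of 98 unbound held a core (odds ratio 2.68). The call did not hold in this smaller set of loci (Fisher exact p = 0.0539, adjusted p = 0.323). The part of base composition in the result was not tested further.

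Along the window, the share of bound windows with a core was higher than that of unbound ones just upstream of the start, where most peak centres lay, and in several bins downstream. Between 50 and 1 bp upstream a core began in 24.4% of bound (13.8 to 39.3%) and 7.87% of unbound windows (5.34 to 11.4%). Between 100 and 51 bp upstream the shares were 24.4% and 13.8%, and in the next 50 bp 22.0% and 9.18%. In the bins farther upstream they ran from 2.44 to 7.32% in bound and from 6.89 to 10.5% in unbound windows. Downstream the bound share was also higher from 0 to 49 bp (19.5% against 11.1%), from 50 to 99 bp (12.2% against 10.5%) and from 150 to 199 bp (19.5% against 6.56%). It was 12.2, 14.6 and 17.1% in the 3 bins from 250 to 399 bp, against 7.87, 6.89 and 7.87%, so the higher shares were not confined to the upstream side. These bins were not tested.

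**Figure D4:**
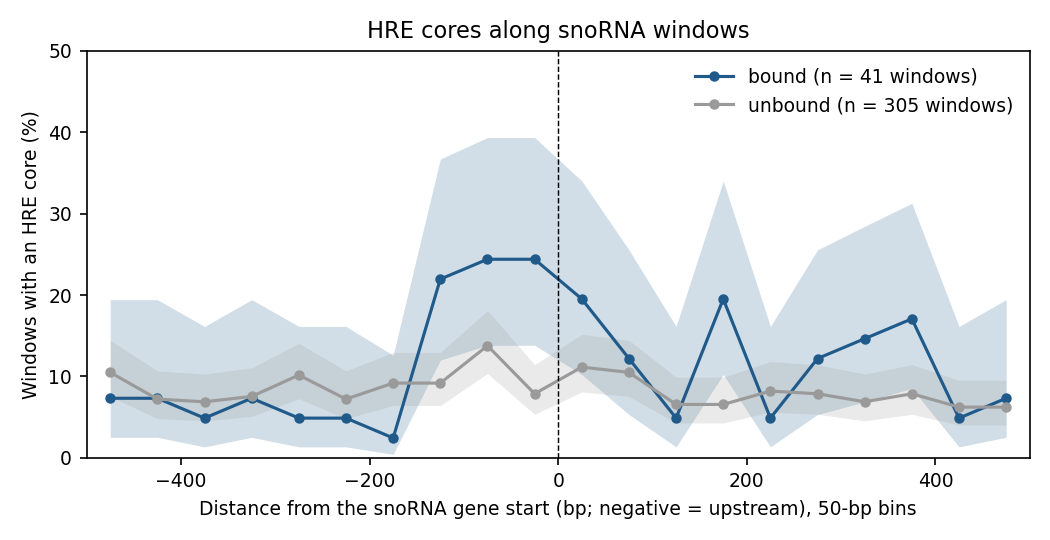
Share of snoRNA windows (y axis, percent) in which an HRE core began in each 50-bp bin along the window (x axis, distance from the snoRNA start in bp) for 41 bound windows (blue) and 305 unbound windows (grey), with Wilson 95% bands. Bound windows stood at 24.4% in the bin next to the start on its upstream side and unbound windows at 7.87%.

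Read at the peak centre and set against the other peaks of the same list, snoRNA sites were not set apart by the core. In egl-9 mutants 26 of 39 snoRNA peaks (66.7%, 51.0 to 79.4%) and 383 of 565 other peaks (67.8%, 63.8 to 71.5%) held a core within 100 bp of the centre (odds ratio 0.95, 0.477 to 1.89, Fisher exact p = 0.861). Peaks near tRNA or snRNA genes and no snoRNA gene held one in 29 of 60 cases (48.3%, 36.2 to 60.7%), with a median signal of 64.4. The 505 peaks near none of these genes held one in 70.1% (66 to 73.9%), with a median signal of 79.0. The snoRNA peaks thus lay between these classes in median signal (72.6), and the difference between snoRNA and tRNA or snRNA peaks was not tested. In the control list 4 of 5 snoRNA peaks and 28 of 47 others held a core (Fisher exact p = 0.637).

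The B box of RNA polymerase III promoters, searched as GTTCGANNC on either strand of the gene with 100 bp on each side, was present at 9 of 40 bound loci (22.5%, 12.3 to 37.5%) and 21 of 281 unbound loci (7.47%, 4.94 to 11.2%). These letters, too, were chosen with earlier results of these data known. The odds ratio was 3.59 (1.51 to 8.54, Fisher exact p = 0.00592, adjusted p = 0.0178). With the shorter letters GTTCGA it was 2.19 and the adjusted p from the same exact test was 0.0942. Without genes that hold an A box together with the B box, described next, it was 1.79 (adjusted p = 0.831, Fisher exact). That arrangement was chosen after these windows were read and most of its carriers were bound, so this value cannot show what it accounts for. In the loci of higher GC content named above it was 2.18 (Fisher exact, adjusted p = 0.328). In a stretch of 330 bp that begins 100 bp before the gene start, the longer letters stood at 3.90% of all nuclear genes and 8.96% of snoRNA genes.

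Reading these sequences showed a regular arrangement that was then counted in every window, with no test because it was chosen after the values were seen. In 11 of 41 bound genes (26.8%) and 7 of 305 unbound genes (2.30%) the letters TGGNNNAG, as in an A box, were followed by GTTCNANNC, as in a B box, on the snoRNA's own strand, with 20 to 70 bp between their first letters, between 120 bp upstream and 20 bp downstream of the start. Of the 18 snoRNA genes with the pair, 11 were bound. Over all nuclear genes the pair stood in the same place at 45 genes (0.0960%), over protein-coding genes at 9 (0.0451%) and over snRNA genes at 0 of 129. Inside tRNA genes, where these elements normally lie, the pair was found in 365 of 612 (59.6%). Counting either list, a peak centre lay between the outer ends of the pair in 10 of the 11 bound genes. At C51F7.3 and W03C9.9 only the control centre did, 99 bp (the first base of the pair) and 64 bp upstream. Their centres in egl-9 mutants lay 20 and 104 bp upstream, and T03F7.8 was bound only in the control list. Peak centres over all snoRNA windows of egl-9 mutants had quartiles of -64 and -24.5 bp, a stretch the pair often covers. The count alone therefore does not tie the centres to the pair. An HRE core was present within 100 bp of the start in 8 of the 11, and in 4 of them a core touched the stretch from the A box to the B box, as at M106.6, where GCGTG shares its last letters with TGG. Of the 7 unbound genes with the pair, 4 held a core.

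The bases before the start of 6 bound genes are shown, since they carry this arrangement, with 3 unbound genes that carry it too. Each line holds the 100 bp upstream of the gene on its own strand, and capitals mark the A-box and B-box letters. The first 3 genes are bound in the control list (C51F7.3, W03C9.9 and T03F7.8), and the last 3 are unbound (ZK546.18, T24H7.6 and T10B9.11).
C51F7.3 (V:12303608-12303707, plus strand): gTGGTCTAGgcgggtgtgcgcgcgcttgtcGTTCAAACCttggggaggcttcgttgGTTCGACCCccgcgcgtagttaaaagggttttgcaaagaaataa
W03C9.9 (II:11960798-11960897, plus strand): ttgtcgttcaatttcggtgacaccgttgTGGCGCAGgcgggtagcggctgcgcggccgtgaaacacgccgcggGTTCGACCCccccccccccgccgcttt
T03F7.8 (V:11314158-11314257, plus strand): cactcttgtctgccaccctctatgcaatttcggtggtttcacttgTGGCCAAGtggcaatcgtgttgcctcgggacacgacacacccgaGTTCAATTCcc
F55A11.10 (V:11782892-11782991, plus strand): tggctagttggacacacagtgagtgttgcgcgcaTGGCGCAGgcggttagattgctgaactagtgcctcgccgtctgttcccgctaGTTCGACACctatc
F30H5.4 (III:502704-502803, plus strand): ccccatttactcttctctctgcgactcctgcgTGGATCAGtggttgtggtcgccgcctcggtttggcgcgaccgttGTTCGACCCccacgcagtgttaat
M106.6 (II:10840217-10840316, plus strand): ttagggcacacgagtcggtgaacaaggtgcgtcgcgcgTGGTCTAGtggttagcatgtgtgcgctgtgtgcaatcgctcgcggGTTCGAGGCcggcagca
ZK546.18 (II:4942520-4942619, minus strand): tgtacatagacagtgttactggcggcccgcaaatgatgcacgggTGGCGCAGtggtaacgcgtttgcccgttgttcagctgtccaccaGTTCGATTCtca
T24H7.6 (II:6248617-6248716, plus strand): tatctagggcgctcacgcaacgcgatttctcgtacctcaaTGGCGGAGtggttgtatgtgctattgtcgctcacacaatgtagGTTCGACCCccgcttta
T10B9.11 (II:9774835-9774934, minus strand): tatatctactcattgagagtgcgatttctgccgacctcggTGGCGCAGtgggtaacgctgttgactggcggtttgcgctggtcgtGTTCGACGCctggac

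C51F7.3 held the B-box letters at 2 places after the same A box. Its upstream bases largely coincide with the annotated sequence of C51F7.4, so the same letters lie inside C51F7.4 as annotated, downstream of its start. In W03C9.9 the pair ended 19 bp before the start, and in T03F7.8 it ended 3 bp before it. Among the unbound genes with the pair, ZK546.18 had its nearest centre in egl-9 mutants 713 bp away, beyond the limit, and T24H7.6 had its nearest 340357 bp away.

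A different element, GGAACCCG on the snoRNA's own strand, was also noticed upstream and counted in the same interval, likewise with no test. Its letters hold neither form of the HRE core. It was present at 5 of 41 bound genes (12.2%) and 11 of 305 unbound genes (3.61%), and at no gene together with the A and B box pair. It stood at 24 of 129 snRNA genes (18.6%), at 13 of 19973 protein-coding genes (0.0651%) and at 70 of all nuclear genes (0.149%). Either element was present at 16 bound and 18 unbound snoRNA genes. The 100 bp upstream of 4 of the 5 bound genes are shown on the gene's strand, with the element in capitals.
Y53F4B.47 (II:15025894-15025993, minus strand): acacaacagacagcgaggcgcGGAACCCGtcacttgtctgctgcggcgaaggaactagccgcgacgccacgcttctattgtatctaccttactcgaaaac
F01D5.12 (II:14018442-14018541, minus strand): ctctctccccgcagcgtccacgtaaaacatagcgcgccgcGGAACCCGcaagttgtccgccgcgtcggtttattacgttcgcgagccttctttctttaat
Y67A10A.14 (IV:14327122-14327221, minus strand): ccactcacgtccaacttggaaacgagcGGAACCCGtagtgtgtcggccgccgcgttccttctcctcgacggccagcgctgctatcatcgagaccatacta
C16D9.11 (V:8228970-8229069, minus strand): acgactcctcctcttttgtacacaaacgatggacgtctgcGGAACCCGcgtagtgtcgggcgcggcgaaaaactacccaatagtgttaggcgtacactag

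By the letters of the mature RNA, 5 of 41 bound and 10 of 305 unbound genes were of the C/D type, defined as TGATGA in the first 25 bases and CTGA in the last 25 (12.2% against 3.28%, odds ratio 4.10, 1.33 to 12.7, Fisher exact p = 0.0224, adjusted p = 0.0447). The A and B box pair stood upstream of 4 of these 5 bound genes, and without genes that carry it the odds ratio was 0.993. The pair was chosen after these windows were read, and most of its carriers were bound. Leaving them out removes mostly bound genes, so this value cannot show what the pair accounts for. With any overlap of a peak counted as bound it was 3.44 (Fisher exact, adjusted p = 0.0782), and at loci of higher GC content 3.01 (adjusted p = 0.328). H/ACA letters, ACA in the last 12 bases, were found in 13 bound and 98 unbound genes, and 23 and 197 genes fitted neither definition, so most genes remained unclassed by these strict letters. The H/ACA letters are short and can also stand at a gene with box D letters. M106.6, counted here as H/ACA, held both CTGA and ACA at its end. The median length was 97 bp in bound and 131 bp in unbound genes, a difference that was not tested. The 4 genes with both features are shown whole, with box C and box D letters in capitals.
C51F7.3 (V:12303708-12303783, plus strand): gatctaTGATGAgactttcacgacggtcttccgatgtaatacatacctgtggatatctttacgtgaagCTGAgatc
W03C9.9 (II:11960898-11960959, plus strand): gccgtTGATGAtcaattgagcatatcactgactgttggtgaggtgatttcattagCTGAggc
F55A11.10 (V:11782992-11783082, plus strand): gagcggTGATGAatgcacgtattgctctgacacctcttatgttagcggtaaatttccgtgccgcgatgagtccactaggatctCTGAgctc
F30H5.4 (III:502804-502889, plus strand): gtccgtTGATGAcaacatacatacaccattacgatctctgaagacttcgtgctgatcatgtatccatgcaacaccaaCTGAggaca

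The place of a snoRNA gene did not separate bound from unbound loci. Intergenic loci made up 18 of 40 bound (45.0%, 30.7 to 60.2%) and 105 of 281 unbound (37.4%; odds ratio 1.37, 0.703 to 2.68, Fisher exact, adjusted p = 0.525). A position in an intron of a protein-coding host on the same strand was found at 16 of 40 (40%, 26.3 to 55.4%) and 111 of 281 (39.5%; odds ratio 1.02, 0.519 to 2.01, Fisher exact, adjusted p = 1). A protein-coding start lay within 500 bp at 12 of 40 (30.0%) and 68 of 281 (24.2%; odds ratio 1.34, 0.647 to 2.78, Fisher exact, adjusted p = 0.525). All 3 intervals reach odds ratios above 2, so differences of that size remain compatible with the counts. Of the bound genes, 18 were intergenic, 17 in a same-strand intron, 3 in an intron of a gene on the opposite strand and 3 overlapped an exon.

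**Figure D5:**
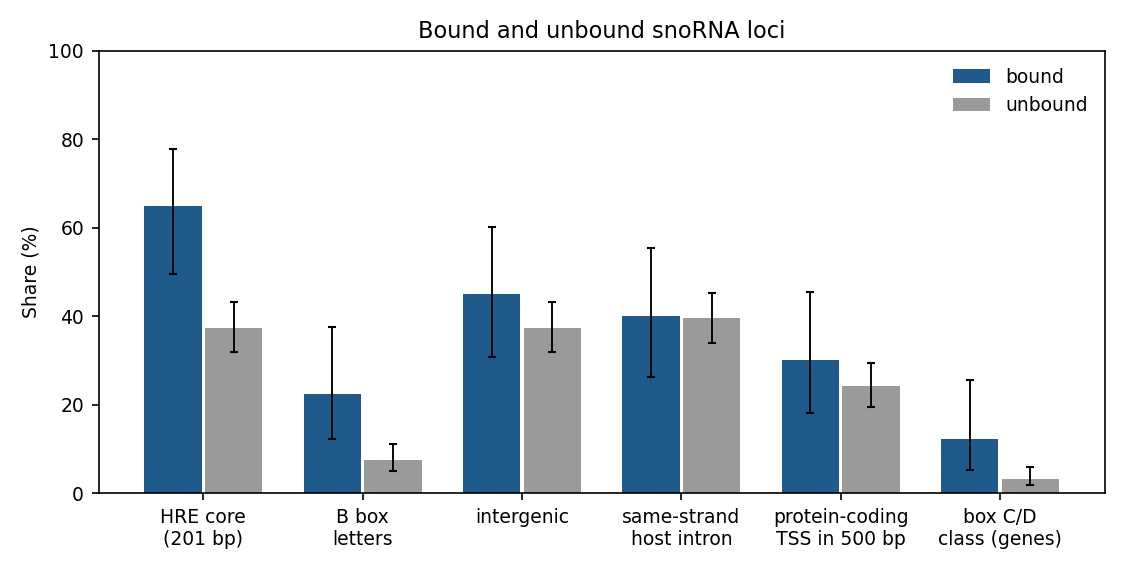
Share (y axis, percent, from 0) of bound loci (blue, n = 40) and unbound loci (grey, n = 281) with each feature, and for the C/D class the share of genes (41 and 305), with Wilson 95% intervals. HRE cores (65.0% and 37.4%), B-box letters (22.5% and 7.47%) and the C/D class (12.2% and 3.28%) passed the adjusted test, and the 3 features of genomic place did not. The motifs were chosen with earlier results of these data known.

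The 145 snoRNA genes with a same-strand host lay in 126 host genes, and 17 hosts held a bound one. K07C5.11 lies in nol-56, which encodes a core protein of box C/D particles. Its peak (signal 57.1) was centred upstream of the snoRNA, 259 bp from the nol-56 start, and K07C5.11 was the only 1 of 4 snoRNA genes in nol-56 to be bound. F54E7.10, 1 of 2 in the small-subunit ribosomal protein gene rps-12, had a peak (78.4) centred 260 bp upstream of it and 113 bp from the rps-12 start. Of 19 snoRNA genes in ribosomal protein hosts, 2 were bound (Y24D9A.9 and F54E7.10), near the share over all snoRNA genes (41 of 346, 11.8%). The 3 snoRNA genes of rpl-6 and the 3 of the topoisomerase gene top-2 were all unbound.

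The other bound intronic genes lay in hosts of varied function, among them unc-41 (a stonin of synaptic vesicle recycling), rfs-1 (a RAD-51 paralog), cfim-2 (a subunit of an mRNA 3′-end cleavage factor) and rol-3 (a receptor tyrosine kinase). Their signals in egl-9 mutants were 72.6 at C27H6.5 in unc-41, 59.2 at C02F5.15 in rfs-1, 74.8 at D1046.6 in cfim-2 and 58.0 at C16D9.11 in rol-3.

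Among the 8 genes for proteins of snoRNA particles that were examined, the nol-56 start was the only one within 1000 bp of a peak centre in egl-9 mutants, and none was in the control list. Over all protein-coding genes, 2.27% had a centre of the egl-9 list and 0.14% a centre of the control list within that distance. None of the 10 examined genes for RNA polymerase III and its factors had a centre within 1000 bp in either list. Lists this short cannot be told from those shares.

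Another snoRNA gene of at least 80% identity was found for 6 bound genes, and 1 of the 5 couples was bound at both copies. Over all snoRNA genes 41 of 346 (11.8%) were bound. Copies were sought for bound genes only, so these counts do not compare bound with unbound genes. F59C6.15 and Y67A10A.14 were 97.1% identical, both held the GGAACCCG element, and both were bound in egl-9 mutants (signals 79.1 and 56.3). ZK643.9 was bound (62.3) and its copy K09E9.5, 94.7% identical, was not. C53B7.8 (57.2) was bound and C46C2.8, 94.5% identical, was not. The bound genes T26A8.6 and K07C5.11, had unbound copies of 85.7% and 82.3% identity. In the 100 bp upstream the couples were less alike, with 76% identity for F59C6.15 and Y67A10A.14 and from 52 to 68% for the others. How reads that fit both copies were assigned is not stated in the sources used here.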

How the data were processed

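Per the study's methods, 2 ChIP replicates and a pooled input of each genotype were sequenced, aligned with BWA (submitters' processing notes, build WBcel235), and turned into peaks by SPP, of which the reproducible ones were retained. The deposited lists hold 1 signal value per peak, made by the authors and not scaled between lists. Its lowest values (54.4 for egl-9 mutants, 141 for the control) differ from those the methods give, so whether the column is the quantity described there is not known. Depth per library is not in the lists. Peak starts were read as 0-based, and the 19 and 18 mitochondrial peaks were left out.

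Each peak was placed by its centre, with Ensembl release 115 genes and RefSeq genome sequence of WBcel235. Shares have Wilson 95% intervals. Fisher exact tests (two-sided) compared bound with unbound loci, adjusted by Benjamini-Hochberg over 6 comparisons at 0.05. Each merged locus was represented by its gene of highest signal. Identity came from global alignment. Python 3.11.15, SciPy 1.17.1 and Biopython 1.88 were used. The placing of peaks in windows, the search for HRE cores and the Fisher exact test were tested on simulated data, and the other steps were not. The regions, motifs and gene lists were chosen with earlier results of these data known. The genes named were all those bound in the control list, the 15 with the highest signal in egl-9 mutants, those at the 500 bp limit, their hosts, and protein genes near a peak. Other genes were named, and the A and B box pair and GGAACCCG chosen, after values were seen.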

Additional observations from a re-analysis of the deposited data

How the results depend on the processing

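Of 100 recomputed values, 74 kept their direction and call. No replicate could be left out, because each genotype has 1 merged list. No paired analysis was possible because the replicate numbers have no columns of their own in the lists. With only the stronger 50% of the list the share of bound windows in egl-9 mutants was 4.62%. Odds ratios that were no longer past the threshold were, for the HRE core, 5.95 (control list alone), 2.44 (200 bp on each side of the start), 3.28 (500 bp on each side), 1.35 (ACGTG alone) and 2.68 (loci of higher GC content). For the B box they were 6.86 (control list alone), 2.19 (GTTCGA), 2.18 (higher GC content) and 1.79 (without genes with the A and B box pair). For the C/D class they were 3.44 (any overlap of a peak), 6.32 (stronger 50% of each list), 12.6 (control list alone) and 3.01 (higher GC content). It turned to 0.993 without genes with the pair. Of the 3 features of place, none of which had passed, the intergenic place stayed above 1 and the others crossed it. The same-strand host gave 0.979 with each gene counted, 0.776 within 250 bp, 0.377 in the control list alone, 0.993 with hosts on either strand and 0.713 without peaks nearer a protein-coding start. A protein-coding start gave 0.914 within 250 bp, 0 in the control list alone, 0.668 without such peaks and 0.956 at higher GC content. In the control list the odds ratio for the upper 50% by signal was 0.630 without peaks near tRNA or snRNA genes. The odds ratio for peaks in snoRNA windows, control against egl-9 mutants, was 9.04 at the lowest control signal, now past the threshold. With as many strongest peaks of egl-9 mutants as control peaks it was 5.43 and did not pass (Fisher exact p = 0.205). The control list alone has 5 bound loci, and its calls are limited by that number. The settings on GC content, on the pair and on peaks nearer a protein-coding start were chosen after the data were seen. Otherwise the cause was not tested.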
